A study of Mus musculus with 3 samples.

Results

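The genes described here are 10 markers by which mouse spleen dendritic cells (DCs) are divided into a CD4+ CD11b+ branch and a CD8+ branch: Cd4, Cd8a, Xcr1, Naaa, Cadm1, Ly75, Itgae, Cd24a, Wdfy4 and Cd5. They were chosen by name with earlier results of these data known, as the probe sets annotated with 1 of these symbols and no other. All 10 were found, on 11 probe sets, among 19938 genes on the array; Wdfy4 had 2 probe sets and each other gene 1. The platform was the Affymetrix Mouse Gene 1.0 ST array, whose probes lie along the length of each transcript, and each of 3 sorted populations was read on 1 array. There are therefore no replicates and no tests, and each difference below is one between arrays.

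The first population was Esam(lo) GFP(hi) cells of RBPJflox/flox CD11c-Cre Cx3cr1-GFP mice, in which Cre under the CD11c promoter acts in DCs and other CD11c-expressing cells. The other 2 were the Esam(hi) GFP(lo) and the Esam(lo) GFP(hi) cells of Cre-negative littermates, which also carried the floxed Rbpj alleles and the Cx3cr1-GFP reporter. All 3 were sorted as CD11c(high) CD11b+ spleen cells, each from a pool of 2 to 3 mice whose age the labels do not give. The study asked how signalling through Notch2 and its nuclear partner RBPJ shapes these DCs.

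By way of background, splenic classical DCs fall into a CD8+ lineage, specialised in passing antigen of dead cells to CD8 T cells, and a CD11b+ lineage that feeds CD4 T cells and largely carries CD4. CD8+ DCs of the mouse are recognised by the CD8 alpha chain, by the chemokine receptor XCR1 and by surface molecules such as DEC-205, CD24, CD103 and CADM1. Within the CD11b+ lineage, Notch2 signalling is known to be needed for the Esam(hi) subset. A sort on CD11b is meant to leave CD8+ DCs out.

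Values are log2 expression values, so a difference of 1 is 2-fold. An array's background was the 95th percentile of its 1194 olfactory and vomeronasal receptor genes, which was 6.87 for labelled RBPJ-deficient cells, 7.17 for Esam(hi) controls and 6.76 for Esam(lo) controls. A gene was called where it was at least 2-fold apart and its brighter array was above background. Over all genes tested the median of Esam(hi) minus Esam(lo) in controls was -0.30. That median was -0.06 once a smooth trend with expression level was taken out (the level trend), and -0.42 with each array centred on its median. Rbpj did not read lower where it should be deleted: its brighter probe set read 10.04 in labelled RBPJ-deficient cells, 9.85 in Esam(hi) controls and 9.85 in Esam(lo) controls. The position of these probes relative to the floxed exons is unknown here, so the values do not check the label, and directions drawn from that array rest on it. The CD11b+ DC markers were above background on all 3 arrays in 7 of 7 genes; these include Itgax and Itgam, the genes of the CD11c and CD11b used in the sort, and Cd4 itself.

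**Figure D1:**
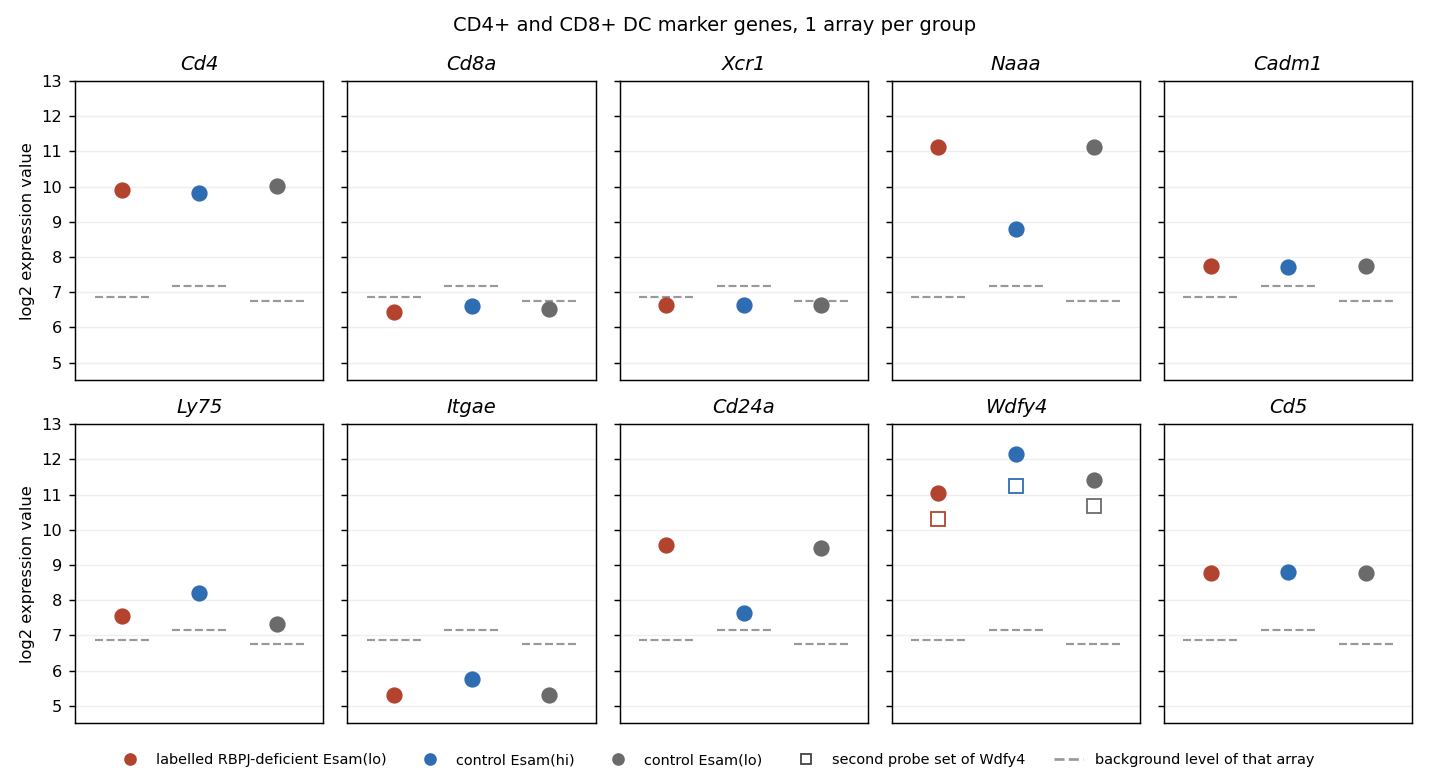
Log2 expression value (vertical axis) of each marker gene on the array labelled RBPJ-deficient, the control Esam(hi) array and the control Esam(lo) array, from left to right in each panel, with each array's background as a dashed line. Each point is 1 array; Cd8a, Xcr1 and Itgae lie below background on all 3, and Naaa and Cd24a are low on the control Esam(hi) array only.

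The promoters of 6 of the 10 markers are in the RefSeq table of build GRCm38.p6. In the 250 bases before each start, 3 short motifs were searched on both strands: TGGGAA, the core letters RBPJ binds, GAGGAAG for the myeloid factor PU.1, and TGANTCA for AP-1. TGGGAA was found in 2 of the 6, Cd8a and Cd5, against 21.6% of 32851 promoters. GAGGAAG was found in 1 of the 6, Cd5, against 10.6% of all promoters, and TGANTCA in 0 of the 6, against 6.75%. The sequences below are the 250 bases before the start of Cd8a (chr6:71373177-71373426, plus strand), a gene below background that holds the RBPJ letters, and of Naaa (chr5:92278182-92278431, minus strand) and Ly75 (chr2:60383274-60383523, minus strand), which lay on opposite sides between the control arrays and hold none of the 3 motifs. For Cd5 the 30 bases around the match are shown (chr19:10739172-10739201, minus strand). All are written 5′ to 3′ on the gene's strand. Capitals mark the match, which in both genes reads TTCCCA because it lies on the opposite strand; its first letter stands 89 bases before the start of Cd8a and 215 before that of Cd5.
Cd8a: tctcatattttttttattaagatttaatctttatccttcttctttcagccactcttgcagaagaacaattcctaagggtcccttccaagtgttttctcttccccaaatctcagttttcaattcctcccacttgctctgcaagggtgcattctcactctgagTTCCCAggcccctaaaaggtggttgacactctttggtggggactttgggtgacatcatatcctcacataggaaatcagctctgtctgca
Cd5: ctctctctggagTTCCCAgcctctctctgc
Naaa: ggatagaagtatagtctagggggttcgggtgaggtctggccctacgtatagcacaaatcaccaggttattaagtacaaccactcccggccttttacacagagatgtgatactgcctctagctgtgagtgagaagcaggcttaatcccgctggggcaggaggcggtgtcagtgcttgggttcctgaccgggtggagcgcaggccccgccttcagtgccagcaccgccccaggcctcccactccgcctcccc
Ly75: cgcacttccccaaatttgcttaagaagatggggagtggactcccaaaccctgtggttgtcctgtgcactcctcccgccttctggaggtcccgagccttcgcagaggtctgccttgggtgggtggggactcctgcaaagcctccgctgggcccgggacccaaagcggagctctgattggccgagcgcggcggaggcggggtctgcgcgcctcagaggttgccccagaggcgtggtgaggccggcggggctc

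A match in these windows is a description of letters, not a binding site, and a window without one says nothing about the factor. Of the genes with the RBPJ letters, Cd8a was below background on every array, so it could not be called in any comparison. Cd5 was not 2-fold apart in any comparison, and neither were most of the genes tested. Whether the letters bear on expression was not tested.

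Of the 10 markers, 7 were above background on all 3 arrays and 3 on none. The 3 were Cd8a, Xcr1 and Itgae, all defining genes of CD8+ DCs. Cd4, the marker of the opposite branch, was read at nearly the same level in all 3 populations. Naaa and Cd24a were lower in Esam(hi) than in Esam(lo) control cells, while Ly75 and Wdfy4 leaned the other way without reaching 2-fold. In bulk RNA, fewer cells of a kind and less RNA per cell cannot be told apart.

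Cd4 encodes the coreceptor that binds MHC class II on helper T cells and is carried by many CD11b+ spleen DCs. It read 9.92 in labelled RBPJ-deficient cells, 9.83 in Esam(hi) controls and 10.005 in Esam(lo) controls. The 3 values span less than 0.2 log2 units, and their order depends on the scaling: Esam(hi) minus Esam(lo) in controls was -0.17 on the deposited values and 0.26 with the level trend removed. Labelled RBPJ-deficient minus Esam(lo) control was -0.09. Labelled RBPJ-deficient minus Esam(hi) control was 0.09, and -0.36 with the trend removed.

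Likeness to Cd4 was measured as the Euclidean distance between the 3 array values, each centred on its gene's mean, over 9310 protein-coding genes above background on at least 1 array. The nearest were Preb, Hrh1, Fosb, Arhgap23 and Ttyh3, at distances of 0.0033 to 0.0125 over 3 arrays. Preb, for example, read 10.06 in labelled RBPJ-deficient cells, 9.98 in Esam(hi) controls and 10.15 in Esam(lo) controls. All these profiles are nearly flat.

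T cells are the other main carriers of Cd4, Cd8a and Cd5. Of 14 T cell markers with a probe set of their own, 4 were above background in labelled RBPJ-deficient cells, 4 in Esam(hi) controls and 5 in Esam(lo) controls. Their summed linear signal was 1325 in labelled RBPJ-deficient cells, 1432 in Esam(hi) controls and 1305 in Esam(lo) controls. Cd3e of the T cell receptor complex, the brightest by its mean over the 3 arrays, read 7.65 in labelled RBPJ-deficient cells, 7.65 in Esam(hi) controls and 7.64 in Esam(lo) controls. Its partners Cd3d and Cd3g were below background on all 3 arrays. The part of T cells in the Cd4 and Cd5 values was not tested.

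Cd8a encodes the alpha chain of CD8, which DCs of the CD8+ lineage carry as a homodimer. It read 6.44 in labelled RBPJ-deficient cells, 6.62 in Esam(hi) controls and 6.52 in Esam(lo) controls, below background on each. Cd8b1, the beta chain used by T cells, read 5.33 in labelled RBPJ-deficient cells, 5.65 in Esam(hi) controls and 5.55 in Esam(lo) controls, also below background. No fold is given where both arrays of a comparison are below background.

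Xcr1 encodes the receptor for the chemokine XCL1, through which CD8 T cells and natural killer cells draw CD8+ DCs. It read 6.64 in labelled RBPJ-deficient cells, 6.64 in Esam(hi) controls and 6.62 in Esam(lo) controls, all below background. The gene for its ligand, Xcl1, was below background as well, between 5.81 and 5.93.

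Itgae encodes CD103, the alpha chain that pairs with integrin beta 7 to bind E-cadherin. It read 5.30 in labelled RBPJ-deficient cells, 5.77 in Esam(hi) controls and 5.30 in Esam(lo) controls, under each background by over 1 log2 unit. Its partner gene Itgb7 was expressed, at 9.50 in labelled RBPJ-deficient cells, 8.58 in Esam(hi) controls and 9.61 in Esam(lo) controls. Itgb7 was thus 2.04-fold lower in Esam(hi) controls than in Esam(lo) controls, and short of 2-fold with the trend removed (-0.59). Cdh1, the gene for E-cadherin, was below background throughout, at 6.03.

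In the comparison of Esam(hi) with Esam(lo) controls, 7 of the 10 markers could be tested. Of these, 2 were called, Naaa and Cd24a, both lower in Esam(hi) cells, and 0 were higher. Over all 9466 genes tested, 12.1% were called, 11.3% lower and 0.792% higher in Esam(hi) cells. The median difference of the 7 markers above background was -0.03, against -0.30 over all genes tested. With the level trend removed, 4 of the 7 were called, with Ly75 and Wdfy4 higher and Naaa and Cd24a lower, against 6.99% of all genes.

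Naaa encodes a lysosomal amidase that breaks down N-acylethanolamines such as palmitoylethanolamide, and its transcript is a marker of CD8+ DCs in the spleen. It read 8.78 in Esam(hi) and 11.11 in Esam(lo) controls, a 5.03-fold difference. Of the 9466 genes, 43 (0.454%) had a difference at or below that of Naaa. The difference lay between -2.45 and -1.90 under the other scalings. The array labelled RBPJ-deficient read 11.13, next to the Esam(lo) control.

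The genes nearest to Naaa by the same measure of likeness were Cd209a, Selenop, Nceh1, Anxa1 and Clec7a, at distances of 0.0552 to 0.0996 over 3 arrays. Cd209a, a lectin gene of the DC-SIGN family, read 12.05 in labelled RBPJ-deficient cells, 9.63 in Esam(hi) controls and 12.01 in Esam(lo) controls. Clec7a, the beta-glucan receptor Dectin-1, read 11.69 in labelled RBPJ-deficient cells, 9.36 in Esam(hi) controls and 11.56 in Esam(lo) controls.

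Among relatives of Naaa, the acid ceramidase gene Asah1, another lysosomal amidase, read 10.57 in labelled RBPJ-deficient cells, 8.80 in Esam(hi) controls and 10.50 in Esam(lo) controls. It was 3.25-fold lower in Esam(hi) than in Esam(lo) controls. Faah, the membrane hydrolase that also degrades N-acylethanolamines, leaned the other way without reaching 2-fold, at 7.20 in Esam(hi) and 6.79 in Esam(lo) controls. Napepld, whose enzyme makes N-acylethanolamines, had the same value of 6.76 on all 3 arrays, at or near background.

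Cd24a encodes a small, heavily glycosylated surface protein anchored by lipid, high on CD8+ DCs and also on granulocytes, B cells and red cell precursors. It read 7.65 in Esam(hi) and 9.49 in Esam(lo) controls, 3.59-fold apart. Of the 9466 genes, 100 had a difference at or below its own. The difference lay between -1.96 and -1.46 under the other scalings. The array labelled RBPJ-deficient read 9.58, near the Esam(lo) control. In mouse, Cd24a has related intronless copies whose RNA the probes may also read, so the value is uncertain to that extent.

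Siglecg, the gene for a sialic-acid-binding receptor of CD24, leaned the other way, at 10.41 in Esam(hi) and 9.83 in Esam(lo) controls. It passed 2-fold only with the trend removed (1.01).

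Markers of other blood cells also differed between the arrays on which Naaa and Cd24a differed. Neutrophil markers were above background in 8 of 8 genes for labelled RBPJ-deficient cells, 6 for Esam(hi) controls and 8 for Esam(lo) controls. Their summed linear signal was 19497 in labelled RBPJ-deficient cells, 8014 in Esam(hi) controls and 18012 in Esam(lo) controls. The brightest, Ngp, a granule protein gene, read 13.08 in labelled RBPJ-deficient cells, 11.84 in Esam(hi) controls and 12.97 in Esam(lo) controls.

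Monocyte markers were above background in 7 of 7 genes for labelled RBPJ-deficient cells, 3 for Esam(hi) controls and 7 for Esam(lo) controls. Their summed linear signal was 16183 in labelled RBPJ-deficient cells, 2023 in Esam(hi) controls and 15915 in Esam(lo) controls. The brightest, the lysozyme gene Lyz2, read 13.20 in labelled RBPJ-deficient cells, 9.97 in Esam(hi) controls and 13.06 in Esam(lo) controls. Of the neutrophil markers, 5 of 8 were called lower in Esam(hi) than in Esam(lo) controls and 0 higher, and 2 lower and 1 higher with the trend removed. Of the monocyte markers, 6 of 7 were called lower and 0 higher, with and without the trend. The part of neutrophils and monocytes in the Naaa and Cd24a values was not tested.

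Plasmacytoid DC markers were above background in 5 of 8 genes on each array and summed to 2917 in labelled RBPJ-deficient cells, 1719 in Esam(hi) controls and 2434 in Esam(lo) controls. Tcf4, the brightest of them by its mean over the 3 arrays, read 9.62 in labelled RBPJ-deficient cells, 8.34 in Esam(hi) controls and 9.55 in Esam(lo) controls. Its control difference was short of 2-fold with the trend removed (-0.79). Spib read 9.80 in labelled RBPJ-deficient cells, 8.09 in Esam(hi) controls and 9.28 in Esam(lo) controls. Its control difference of -1.19 was also short of 2-fold with the trend removed (-0.79). Spib was 3.28-fold higher in labelled RBPJ-deficient cells than in Esam(hi) controls, and still past 2-fold with the trend removed (1.28). Of the 5 above background, Cox6a2 alone lay the other way on the deposited values, at 8.60 in Esam(hi) and 7.95 in Esam(lo) controls. Siglech, Ly6d and Pacsin1 were below background on all 3 arrays. B cell markers were above background in 2 of 9 genes for labelled RBPJ-deficient cells, 3 for Esam(hi) controls and 2 for Esam(lo) controls. They summed to 1838 in labelled RBPJ-deficient cells, 2106 in Esam(hi) controls and 2013 in Esam(lo) controls. Of these, Cd22 and Cd79b were above background on all 3 arrays and Blk in Esam(hi) controls, and the other 6, among them Ms4a1, Cd79a and Pax5, on none. Cd79b, a chain of the B cell receptor, read 9.29 in labelled RBPJ-deficient cells, 8.20 in Esam(hi) controls and 9.12 in Esam(lo) controls. It was 2.12-fold higher in labelled RBPJ-deficient cells than in Esam(hi) controls, though short of 2-fold with the trend removed (0.67). Cd22 and Blk lay the other way in that comparison, at -0.64 and -0.99 (-1.08 and -0.93 with the trend removed). Natural killer markers, led by Klrd1, were above background in 2 of 7 genes on each array. They summed to 1950 in labelled RBPJ-deficient cells, 1125 in Esam(hi) controls and 1948 in Esam(lo) controls. Klrd1 read 10.60 in labelled RBPJ-deficient cells, 9.46 in Esam(hi) controls and 10.60 in Esam(lo) controls. Its control difference was short of 2-fold with the trend removed (-0.70). Nkg7 had the same value of 7.47 on all 3 arrays, and Ncr1, Klrb1c, Gzma, Prf1 and Eomes were below background on each. Both erythroid markers with a probe set of their own, Alas2 and Klf1, were below background on all arrays. The part of these cells in the marker values was not tested.

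**Figure D2:**
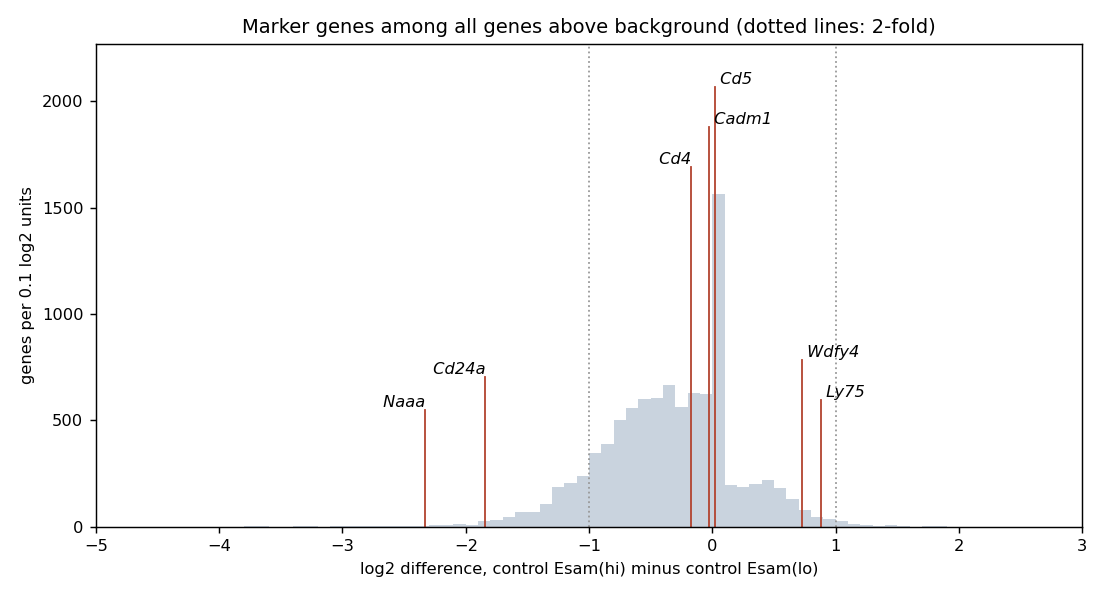
Histogram of the log2 difference, Esam(hi) minus Esam(lo) in control cells, over all 9466 genes tested (horizontal axis in log2 units, vertical axis genes per bin of 0.1), with the 7 marker genes above background as red lines of arbitrary height. Naaa (-2.33) and Cd24a (-1.84) lie beyond 2-fold on the low side, Cd4, Cadm1 and Cd5 lie near 0, and Wdfy4 (0.73) and Ly75 (0.88) lie on the high side.

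Ly75 encodes DEC-205, an endocytic receptor that delivers antigen to processing compartments. It read 8.20 in Esam(hi) and 7.32 in Esam(lo) controls, 1.84-fold apart. This is short of 2-fold, and it passed 2-fold with quantile normalization (1.03) and with the level trend removed (1.05). Of the 9466 genes, 122 (1.29%) had a difference at or above that of Ly75. The array labelled RBPJ-deficient read 7.57, between the controls and nearer to Esam(lo). Of its relatives in the mannose receptor family, Mrc1, Mrc2 and Pla2r1 were below background on all 3 arrays.

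Wdfy4 encodes a BEACH domain protein that mouse CD8+ DCs need to cross-present antigen of cells. Its brighter probe set read 12.15 in Esam(hi) and 11.42 in Esam(lo) controls, a difference of 0.73. The second probe set had the same order, at 11.24 in Esam(hi) and 10.67 in Esam(lo) controls, a difference of 0.57. With the level trend removed the brighter one passed 2-fold (1.09). Of its relatives, Lrba leaned the same way, at 9.20 in Esam(hi) and 8.97 in Esam(lo) controls, and Wdfy3 the opposite way, at 8.13 in Esam(hi) and 8.93 in Esam(lo) controls, both short of 2-fold. Nbeal1 read 7.49 in Esam(hi) and 7.93 in Esam(lo) controls, and Wdfy1 had the same value on all 3 arrays (7.67).

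Cadm1, a nectin-like adhesion molecule that binds CRTAM on T cells, read 7.75 in labelled RBPJ-deficient cells, 7.72 in Esam(hi) controls and 7.75 in Esam(lo) controls. It lay above each background by less than 1 log2 unit, and the sign of its control difference changed with the scaling. Crtam was below background on all 3 arrays at 5.56. Its paralog Cadm3 read 9.78 in labelled RBPJ-deficient cells, 8.66 in Esam(hi) controls and 9.10 in Esam(lo) controls. Cadm3 was 2.17-fold higher in labelled RBPJ-deficient cells than in Esam(hi) controls, though short of 2-fold with the trend removed (0.67).

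Cd5 encodes a scavenger-type receptor of T cells and B-1 cells, present on some DCs. It read 8.77 in labelled RBPJ-deficient cells, 8.80 in Esam(hi) controls and 8.77 in Esam(lo) controls, so the 3 populations lay close together. Its control difference was 0.02, and 0.44 with the level trend removed. Its paralog Cd6 was below background at 6.62 on each array. Cd72, a B cell receptor once proposed as a ligand of CD5, read 10.36 in labelled RBPJ-deficient cells, 9.85 in Esam(hi) controls and 9.75 in Esam(lo) controls.

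The labelled RBPJ-deficient cells were next set against controls of matching Esam(lo) phenotype. Of the 7 markers that could be tested, 0 were called under 2-fold or 1.5-fold thresholds. Over all 9541 genes tested, 0.262% were called at 2-fold, 0.0734% higher and 0.189% lower, and 0.267% with the level trend removed. At 1.5-fold the share of all genes was 0.891%, so few genes of any kind were called at either threshold. The farthest below was Wdfy4, with 11.03 in labelled RBPJ-deficient cells and 11.42 in Esam(lo) controls, a difference of -0.39. The second probe set read 10.30 in labelled RBPJ-deficient cells and 10.67 in Esam(lo) controls, a difference of -0.37. Of the 9541 genes, 106 (1.11%) had a difference at or below that of Wdfy4.

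The farthest above was Ly75, with 7.57 in labelled RBPJ-deficient cells and 7.32 in Esam(lo) controls, a difference of 0.25. Naaa differed by 0.01, Cd24a by 0.08 and Cd4 by -0.09. Cadm1, Cd5 and Itgae were exactly equal on both arrays. Exact ties made up 41.4% of all genes in this comparison. Median polish, a step of RMA, can return 1 value for several arrays, so a tie does not show that a gene was the same.

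Between labelled RBPJ-deficient cells and Esam(hi) controls, 3 of the 7 markers that could be tested were called, 2 higher and 1 lower. Over all 9312 genes tested, 14.1% were called, 12.9% higher and 1.18% lower. With the level trend removed the same 3 markers were called, against 8.44% of all genes. This comparison shares an array with each of the other 2, so its values are not independent of theirs.

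Naaa was 5.07-fold higher, at 11.13 in labelled RBPJ-deficient cells and 8.78 in Esam(hi) controls. Cd24a was 3.80-fold higher, at 9.58 in labelled RBPJ-deficient cells and 7.65 in Esam(hi) controls. Wdfy4 was 2.16-fold lower, at 11.03 in labelled RBPJ-deficient cells and 12.15 in Esam(hi) controls. Its second probe set read 10.30 in labelled RBPJ-deficient cells and 11.24 in Esam(hi) controls, a difference of -0.94. With each array centred on its median the difference of the brighter probe set was -0.99, just short of 2-fold, and with the trend removed it was -1.48. Of 9312 genes, 72 (0.773%) had a difference at or below that of Wdfy4.

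Ly75 was lower without reaching 2-fold, at 7.57 in labelled RBPJ-deficient cells and 8.20 in Esam(hi) controls. Cd4, Cadm1 and Cd5 differed by 0.09, 0.03 and -0.02, each with a sign that depended on the scaling.

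Labelled RBPJ-deficient cells were also placed on a scale on which Esam(lo) controls are 0 and Esam(hi) controls are 1. They stood at -0.01 for Naaa and -0.04 for Cd24a. The median over all 1141 genes called between the controls was -0.01, with quartiles of -0.09 and 0.04, so both markers lay between these quartiles. Wdfy4, which was not called between the controls, was lowest in labelled RBPJ-deficient cells, higher in Esam(lo) and highest in Esam(hi) controls on both probe sets. Dtx1, a target of Notch signalling, had the same order, with 8.56 in labelled RBPJ-deficient cells, 11.25 in Esam(hi) controls and 9.55 in Esam(lo) controls. The sizes were unlike. Labelled RBPJ-deficient minus Esam(lo) control was -0.997 for Dtx1 and -0.39 for Wdfy4. Esam(hi) minus Esam(lo) in controls was 1.70 for Dtx1 and 0.73 for Wdfy4. How many of all genes have this order was not counted, and whether Wdfy4 is a Notch target was not tested.

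**Figure D3:**
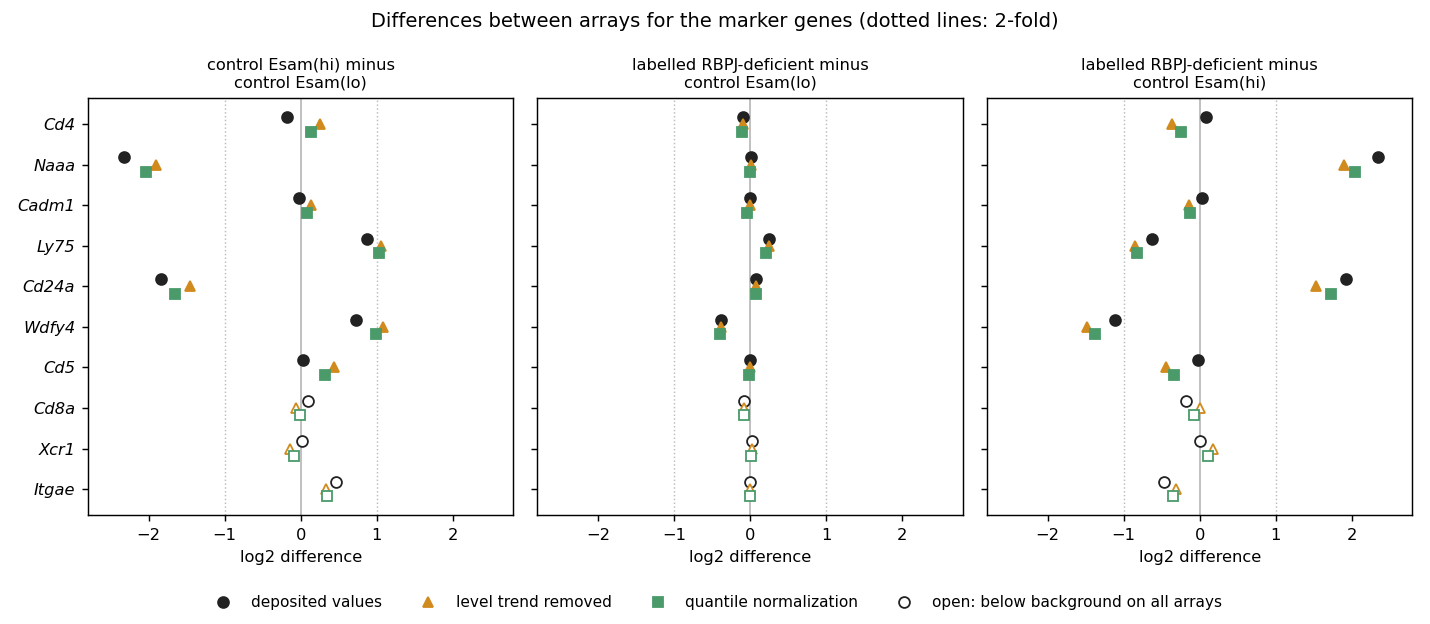
Log2 difference (horizontal axis) of each marker gene in the 3 comparisons, 1 per panel, on the deposited values (circles), with the level trend removed (triangles) and after quantile normalization (squares); open symbols are genes below background on all arrays. Naaa and Cd24a lie beyond 2-fold in the same direction under all 3 scalings in both comparisons with the Esam(hi) array, and no gene does in the middle panel.

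The other genes of the CD8+ DC lineage were read from a list of 19, of which 18 had a probe set of their own. This list and the later ones were chosen with earlier results of these data known, so shares beside all genes are description only. In the control comparison 13 could be tested, of which 5 were called lower in Esam(hi) cells and 0 higher, with a median difference of -0.73; over all genes tested 11.3% were lower and 0.792% higher, with a median of -0.30. With the trend removed, 5 were lower and 0 higher (median -0.48). Between labelled RBPJ-deficient cells and Esam(lo) controls, 0 of 13 were called. Set against Esam(hi) controls, 6 of 12 were higher in labelled RBPJ-deficient cells and 0 lower, with a median of 1.07 (5 higher and a median of 0.87 with the trend removed), against 12.9% higher and a median of 0.31 over all genes.

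Clec9a, the receptor for actin filaments of dead cells, read 9.20 in labelled RBPJ-deficient cells, 6.15 in Esam(hi) controls and 9.20 in Esam(lo) controls. It was below background in Esam(hi) controls and at least 4.10-fold lower there than in Esam(lo) controls. Irf8, a transcription factor that CD8+ DCs depend on, read 10.07 in labelled RBPJ-deficient cells, 8.58 in Esam(hi) controls and 10.29 in Esam(lo) controls, which made it 3.27-fold lower in Esam(hi) than in Esam(lo) controls. Ppt1, a lysosomal thioesterase, was 3.23-fold lower, at 8.80 in Esam(hi) and 10.50 in Esam(lo) controls.

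Ifi205, an interferon-inducible gene with close relatives, was at least 3.84-fold lower, at 6.39 in Esam(hi) and 9.11 in Esam(lo) controls. The scavenger receptor gene Cd36 was at least 1.44-fold lower, at 6.004 in Esam(hi) and 7.70 in Esam(lo) controls. Its call rests on the deposited difference of -1.69, which uses a value below background. Both were below background in Esam(hi) controls.

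Batf3 and Id2, factors that build the CD8+ lineage together with Irf8, were not 2-fold apart. Batf3 read 8.69 in labelled RBPJ-deficient cells, 9.16 in Esam(hi) controls and 9.03 in Esam(lo) controls. Id2 read 10.94 in labelled RBPJ-deficient cells, 11.31 in Esam(hi) controls and 10.85 in Esam(lo) controls. Btla, an inhibitory receptor, read 9.42 in labelled RBPJ-deficient cells, 8.005 in Esam(hi) controls and 8.84 in Esam(lo) controls, and was 2.66-fold higher in labelled RBPJ-deficient cells than in Esam(hi) controls, but just under 2-fold with the trend removed. Rab7b, at 7.59 in labelled RBPJ-deficient cells, 6.86 in Esam(hi) controls and 7.59 in Esam(lo) controls, and the RNA sensor gene Tlr3, at 7.17 in labelled RBPJ-deficient cells, 7.03 in Esam(hi) controls and 7.17 in Esam(lo) controls, were below background in Esam(hi) controls.

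Over the markers and this list together, genes of CD8+ DCs were thus read unevenly. Cd8a, Xcr1 and Itgae were below background on all 3 arrays, while Cadm1, Ly75, Cd24a, Wdfy4 and Naaa were above it on all 3. Of the 18 other genes of the lineage, 12 were above background in labelled RBPJ-deficient cells, 7 in Esam(hi) controls and 13 in Esam(lo) controls. The part of CD8+ DCs in these values was not tested. Nor was that of monocytes, neutrophils and plasmacytoid DCs, whose summed marker signal was also lower in Esam(hi) than in Esam(lo) controls.

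The CD4+ CD11b+ DC list held 12 genes besides Cd4, and 2 of them, Esam and Itgam, were used in the sort and support nothing here. All 12 could be tested between the controls; 2 were higher in Esam(hi) cells and 2 lower, with a median of -0.36 (-0.03 with the trend removed, 2 higher and 1 lower). Over all genes 0.792% were higher and 11.3% lower, with a median of -0.30. Without the genes of the sort, 1 of the other 10, Dtx1, was higher and 1, Cd209a, lower. Dtx1 was 3.25-fold higher, Cd209a 5.23-fold lower, Esam at least 2.04-fold higher and Itgam 2.11-fold lower, the last of these short of 2-fold with the trend removed (-0.65). Irf4, the transcription factor of the CD11b+ lineage, read 10.05 on all 3 arrays.

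Sirpa, an inhibitory receptor of the CD11b+ lineage, read 12.16 in labelled RBPJ-deficient cells, 11.72 in Esam(hi) controls and 12.16 in Esam(lo) controls. Notch2 itself read 11.50 in labelled RBPJ-deficient cells, 10.87 in Esam(hi) controls and 11.40 in Esam(lo) controls. The inhibitory lectin gene Clec4a4 read 8.98 in labelled RBPJ-deficient cells, 8.60 in Esam(hi) controls and 8.98 in Esam(lo) controls, and its relative Clec4a2 read 8.04 in labelled RBPJ-deficient cells, 7.29 in Esam(hi) controls and 7.98 in Esam(lo) controls. None of these 4 was 2-fold apart in any comparison. Between labelled RBPJ-deficient cells and Esam(lo) controls, 0 of 11 were called, with Dtx1 nearest to 2-fold (-0.997). Set against Esam(hi) controls, 2 of 12 were higher in labelled RBPJ-deficient cells, Cd209a and Itgam, and 2 lower, Dtx1 and Esam. Over all genes 12.9% were higher and 1.18% lower. Esam was below background in labelled RBPJ-deficient cells, and its fold there was at least 1.89.

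Of 29 partners and paralogs of the markers, 27 had a probe set of their own. In the control comparison 16 could be tested, and 2, Asah1 and Itgb7, were lower in Esam(hi) cells with 0 higher, a share near the 11.3% of all genes that were lower. With the trend removed, Asah1 was lower and Siglecg higher. None of 16 was called in labelled RBPJ-deficient cells against Esam(lo) controls. Set against Esam(hi) controls, 2 of 15 were higher in labelled RBPJ-deficient cells, Asah1 and Cadm3, and 0 lower, with Asah1 alone left once the trend was removed; over all genes 12.9% were higher, again a share near that of the list.

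**Figure D4:**
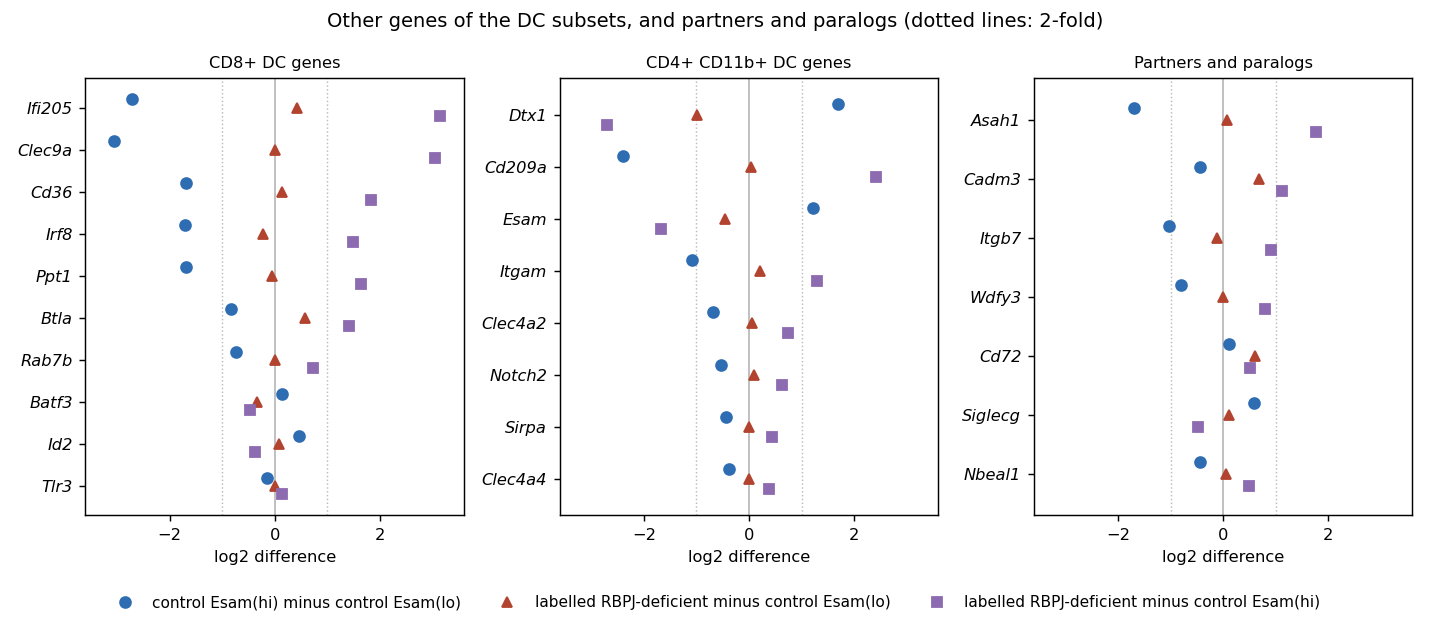
Log2 difference (horizontal axis) of named genes of the CD8+ DC list, the CD4+ CD11b+ DC list and the partners and paralogs of the markers, 1 list per panel, in the 3 comparisons (circles, triangles and squares); each symbol compares 2 arrays. In the first list the genes beyond 2-fold between the controls are all lower in Esam(hi) cells, while the second list has genes on both sides.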

How the data were processed

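RNA of 3 sorted populations was measured on 1 array each. The deposited values are log2 expression values that the authors made with RMA and Affymetrix Expression Console, per the submitters' processing notes; their versions and the genome build: not given in the sources used here. The 3 columns have different quartiles. Differences in scale and differences in expression between the populations were not told apart. Removing the level trend is therefore an alternative reading, not a correction. Genes were named from the platform annotation, using the 21789 of 35556 probe sets with 1 symbol; 1621 have several and 12146 none. Of the 19938 genes, 999 have several probe sets and were represented by the brightest over the arrays. A RefSeq gene table of build GRCm38.p6 gave gene types only, for 19853 genes.

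A gene was tested where its brighter array (either, if tied) was above that array's background, and called where it was also at least 2-fold apart. If only the brighter array passed background, the fold was taken against the other array's background and is a lower bound. The call itself used the deposited difference, so a called gene can have a bound under 2-fold. With 1 array per group no test was possible, and precision is limited by how few arrays there are. The level trend was a lowess curve (fraction 0.3, statsmodels 0.14.6) over all genes. Alternatives were other filters, scalings, fold thresholds of 1.5 and 3, and the mean over probe sets. The calling rule was tested on simulated arrays without a level trend, a shift in scale or ties. That test therefore says nothing about their effect on these arrays. The members and lists were chosen with earlier results of these data known. Named were all members, the called genes of each list and up to 4 others with the largest differences, the brightest marker of each cell type, and the 5 genes most like Cd4 and Naaa; other genes named were chosen after their values were seen. Promoters came from RefSeq, build GRCm38.p6.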

Additional observations from a re-analysis of the deposited data

How the results depend on the processing

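Between the controls, 2 markers were called on the deposited values. The count was 4 with the level trend removed and 4 at a 1.5-fold threshold, with Ly75 and Wdfy4 added both times, and 3 with quantile normalization. It was 2 under the other 5 alternatives: 2 other filters on dim genes, centring, a 3-fold threshold and the mean over probe sets. Between labelled RBPJ-deficient cells and Esam(lo) controls the count was 0 under all 8 alternatives. Between labelled RBPJ-deficient cells and Esam(hi) controls it was 2 to 4, against 3 on the deposited values. Naaa and Cd24a were called under all 8 alternatives in both comparisons with the Esam(hi) array, and no called marker changed sign. Of 30 differences, called or not, 4 changed sign with centring, 6 with quantile normalization and 7 with the trend removed. The share of all genes called between the controls was 6.99% with the trend removed, 35.4% at 1.5-fold, 2.20% at 3-fold and 5.79% with no filter, against 12.1% on the deposited values. No paired analysis was possible because each group has 1 array. Values below background, such as those of Cd8a, Xcr1 and Itgae, do not show that a gene is silent.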
